A study of Mus musculus with 12 samples.

Results

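The 10 genes described here encode the MCM and GINS subunits of the mouse replication helicase: Mcm2, Mcm3, Mcm4, Mcm5, Mcm6 and Mcm7, and Gins1, Gins2, Gins3 and Gins4. They were taken by symbol, as 10 of the 22462 genes in the count table, and all 10 passed the filter on low counts. Messenger RNA was measured by sequencing total RNA, and its translation by ribosome profiling, in which the pieces of mRNA covered by a ribosome (ribosome-protected fragments, or footprints) are sequenced. Each was measured in 3 libraries of naive embryonic stem cells (ESCs) and 3 libraries of epiblast-like cells (EpiLCs), a formative state that ESCs enter on differentiation. The ESCs were kept in 15% fetal bovine serum with LIF and the inhibitors PD0325901 and CHIR99021 (2i). For EpiLCs, 400000 of these ESCs were plated, LIF and 2i were withdrawn after 24 hours, and cells were harvested about 56 hours after that. The labels do not name the line of these libraries, and the study lists for its differentiation a V6.5 ESC line with an mCherry reporter of miR-290 and a GFP reporter of miR-302. EpiLCs differed from ESCs in medium, and possibly in time since plating, which is not given for the ESC libraries. The study calls the libraries of a group biological replicates, while the labels only number them, and the p-values measure the spread between these libraries.

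The MCM2-7 proteins form a ring that holds a single copy of each subunit. It is loaded around DNA at origins in G1 by ORC, Cdc6 and Cdt1, a step called licensing. In S phase the kinases Cdc7-Dbf4 and Cdk2 trigger the binding of Cdc45 and of GINS, a complex that also holds a single copy of each of its subunits, and the resulting Cdc45-MCM-GINS assembly unwinds DNA at the fork. Cells load many more MCM rings than they fire, and stem cells are known for licensing origins fast in a short G1 phase.

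Library totals ran from 2681439 to 14655015 counts, and footprint libraries of EpiLCs were the shallowest, at 2681439 to 5413144. Replicates of a group differed by more than counting error in every pair (chi-square per degree of freedom 2.51 to 7.75), so no library was a copy of another. The naive markers Zfp42, Esrrb, Klf4, Tfcp2l1, Tbx3 and Prdm14 were lower in EpiLCs in 6 of 6 cases, and the EpiLC markers Dnmt3b, Otx2, Fgf5 and Pou3f1 were higher in 4 of 4. The 3 markers of both states, Pou5f1, Sox2 and Nanog, were all lower in EpiLCs, with log2 changes of -2.72 to -0.65 in total RNA. The EpiLC markers summed to 107 to 196 CPM (counts scaled by TMM to a common library size) in the total RNA of ESCs, with the highest value in replicate 2, and to 1107 to 1191 in that of EpiLCs. Of 6 markers of feeder fibroblasts, 3 passed the filter, and all 3 (Col1a1, Thy1 and Fbn1) were higher in EpiLCs. Col1a1 and Thy1 passed only through EpiLC libraries, so their direction was partly set by the filter, while Fbn1 passed in both cell types. The fibroblast list summed to 17.1 to 21.1 CPM in ESC total RNA and 65.8 to 68.1 in EpiLC total RNA. In footprints it summed to 22.5 to 32.7 and 88.6 to 105, while the fibroblast marker Postn was at 0 in all 12 libraries. Primitive endoderm markers summed to 3.69 to 5.5 CPM in total RNA of either cell type. The part of other cells in the results below was not tested.

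All 10 helicase genes had a negative log2 change from ESCs to EpiLCs, in total RNA and in footprints alike, and the changes that passed the test lay between -0.22 and -0.86. In total RNA 7 of the 10 were lower at an adjusted p below 0.05 (limma with voom), where 30.7% of the 11750 genes tested were lower by the same measure. In footprints 6 of the 10 were lower, against 28.7% of all genes. The median log2 change of the 10 genes was -0.43 in total RNA and -0.48 in footprints, beside medians of 0.03 and 0.01 over all genes. None fell by the study's further limit of a log2 change beyond 1, which 9.7% of genes passed downward in total RNA and 10.6% in footprints. At an unadjusted p below 0.05 the counts were 9 in total RNA and 8 in footprints. The share of all genes at that level was not counted, here or for the unadjusted counts below, so these counts have no background beside them. No member was past the fold limit in edgeR or DESeq2 either. In bulk libraries fewer cells that express a gene and less RNA per cell cannot be told apart.

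**Figure D1:**
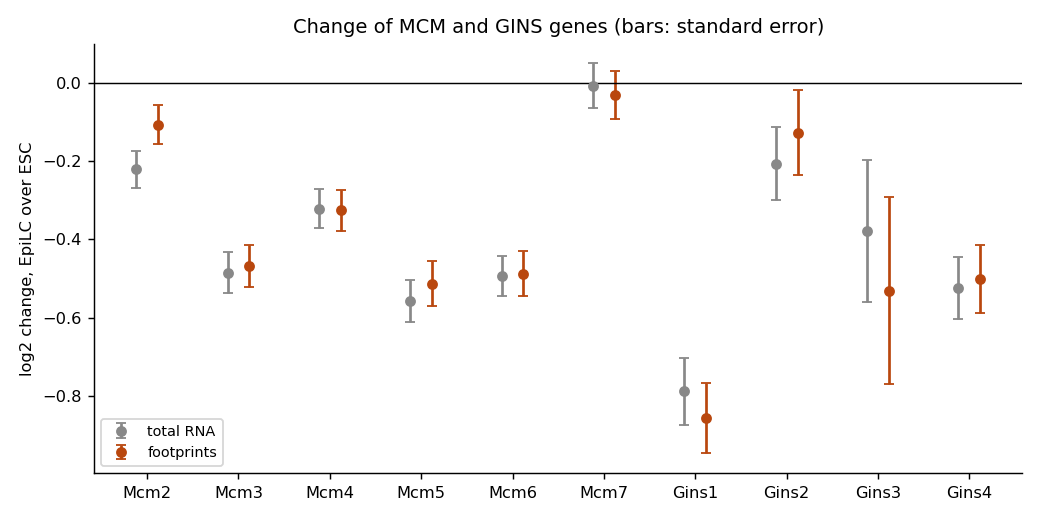
Log2 change from ESCs to EpiLCs (vertical axis) of the 6 MCM and 4 GINS genes in total RNA (grey) and footprints (orange). Points are limma estimates and bars are standard errors; all 20 estimates lie below 0, from -0.01 for Mcm7 in total RNA to -0.86 for Gins1 in footprints.

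Mcm5 (coding sequence at chr8:75109753-75127324, plus strand, mm10 as in all coordinates here) forms with Mcm2 the gate through which DNA enters the ring. It gave the most reads per kb of the 6 and had the largest change among them in both assays. Its total RNA was 1139, 1136 and 1187 CPM in ESC replicates 1 to 3 and 809, 717 and 814 CPM in those of EpiLCs. Its footprints were 1612, 1621 and 1824 CPM in ESCs and 1158, 1166 and 1228 CPM in EpiLCs. Every ESC library lay above every EpiLC library. The log2 change was -0.56 ± 0.05 (SE) in total RNA (limma adjusted p = 1.8e-09) and -0.51 ± 0.06 in footprints (adjusted p = 2.94e-08).

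Mcm3 (chr1:20803456-20820163, minus strand), whose C-terminus docks the ring onto ORC and Cdc6, and Mcm6 (chr1:128331935-128359520, minus strand), which binds Cdt1, had changes close to that of Mcm5. Mcm3 total RNA was 686, 643 and 701 CPM in ESCs and 494, 476 and 478 CPM in EpiLCs, a log2 change of -0.48 ± 0.05 (adjusted p = 1.23e-08). Mcm6 total RNA was 1022, 1008 and 1010.1 CPM in ESCs and 726, 671 and 759 CPM in EpiLCs, a log2 change of -0.49 ± 0.05 (adjusted p = 6.49e-09). Neither gene's groups overlapped. In footprints the log2 change of Mcm3 was -0.47 ± 0.05 (adjusted p = 4.19e-08) and that of Mcm6 -0.49 ± 0.06 (adjusted p = 8.43e-08).

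Mcm4 (chr16:15624677-15637135, minus strand), whose N-terminal tail is a target of Cdc7-Dbf4, had a smaller change, with total RNA of 571, 567 and 573 CPM in ESCs and 438, 466 and 469.7 CPM in EpiLCs. Its log2 change was -0.32 ± 0.05 in total RNA and -0.33 ± 0.05 in footprints (adjusted p = 3.2e-06 and 9.31e-06), again without overlap. Mcm2 (chr6:88884000-88897477, minus strand), a carrier of parental histones at the fork as well as a ring subunit, was lower in total RNA, at 883, 894 and 916 CPM in ESCs and 786, 743 and 775 CPM in EpiLCs (log2 change -0.22 ± 0.05, adjusted p = 0.000237). Mcm2 footprints were 1273, 1255 and 1348 CPM in ESCs and 1192, 1284 and 1156 CPM in EpiLCs. These footprint groups overlapped, and the log2 change of -0.11 ± 0.05 missed the threshold (adjusted p = 0.0676).

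Mcm7 (chr5:138164719-138170382, minus strand) showed no change that passed the test. This subunit forms, with Mcm4 and Mcm6, a subcomplex that unwinds DNA on its own in vitro. Its total RNA was 431, 423 and 423 CPM in ESCs and 441, 386 and 437 CPM in EpiLCs. Its footprints were 559.5, 565 and 612 CPM in ESCs and 544, 557 and 601 CPM in EpiLCs. The groups overlapped in both assays, and the log2 changes were -0.01 ± 0.06 (adjusted p = 0.906) and -0.03 ± 0.06 (adjusted p = 0.676). The ratio of Mcm5 to Mcm7 carries this contrast between subunits within each library, free of any scaling between libraries. Per kb it was 2.59, 2.63 and 2.75 in ESC total RNA and 1.8, 1.82 and 1.82 in EpiLC total RNA. In footprints it was 2.82, 2.81 and 2.92 in ESCs and 2.09, 2.05 and 2.0 in EpiLCs. Per start position unique to each gene, described below, the mean ratio was 1.32 in ESCs and 0.904 in EpiLCs in total RNA at 32 nucleotides, 1.73 and 1.18 at 50, and 1.3 and 0.933 in footprints, so its level depended on the length used. The 2 cell types did not overlap in either assay. A change of length multiplies the ratios of both cell types in an assay by the same factor, so the other lengths are no further check. This pair was chosen after its values were seen, and an exact permutation test of 3 libraries against 3 cannot go below p = 0.1.

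Among the GINS genes, Gins1 (Psf1, chr2:150909764-150930909, plus strand) had the largest change of all 10 members. Its total RNA was 58.5, 57.2 and 59.5 CPM in ESCs and 32.3, 34.6 and 35.4 CPM in EpiLCs. Its footprints were 105.5, 114 and 111 CPM in ESCs and 58.3, 60.5 and 62.9 CPM in EpiLCs. The groups were far apart in both assays, with log2 changes of -0.79 ± 0.09 (adjusted p = 1.47e-08) and -0.86 ± 0.09 (adjusted p = 1.25e-08). Of all genes tested, 12.4% had a lower log2 change in total RNA than Gins1.

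Gins4 (Sld5, chr8:23227079-23237030, minus strand), the GINS gene with the most reads per kb, was at 105, 103 and 109 CPM in ESC total RNA and 69.1, 71.0 and 82.0 CPM in EpiLC total RNA, which did not overlap. Its log2 change was -0.52 ± 0.08 (adjusted p = 2.83e-06), and in footprints -0.50 ± 0.09 (adjusted p = 2.14e-05). Gins2 (Psf2, chr8:120581686-120588970, minus strand) gave 63.1, 63.3 and 68.7 CPM in ESC total RNA and 55.6, 65.2 and 50.8 CPM in EpiLC total RNA. These groups overlapped and missed the threshold (-0.21 ± 0.09, adjusted p = 0.0535), as did its footprints (-0.13 ± 0.11, adjusted p = 0.317).

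Gins3 (Psf3, chr8:95633643-95643337, plus strand) was covered by the fewest reads of the 10, and its change missed the threshold in both assays. Its footprint counts were 115, 88 and 148 in ESCs and 62, 32 and 41 in EpiLCs. The count of 32 has an exact 95% Poisson interval of 21.9 to 45.2, and that of 62 one of 47.5 to 79.5; such intervals cover counting error only, since reads carried no molecular identifiers. The scaled values were 14.7, 18.7 and 13.6 CPM in ESCs and 12.9, 12.2 and 7.69 CPM in EpiLCs. Its log2 changes were -0.38 ± 0.18 in total RNA (adjusted p = 0.0707) and -0.53 ± 0.24 in footprints (adjusted p = 0.0584).

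**Figure D2:**
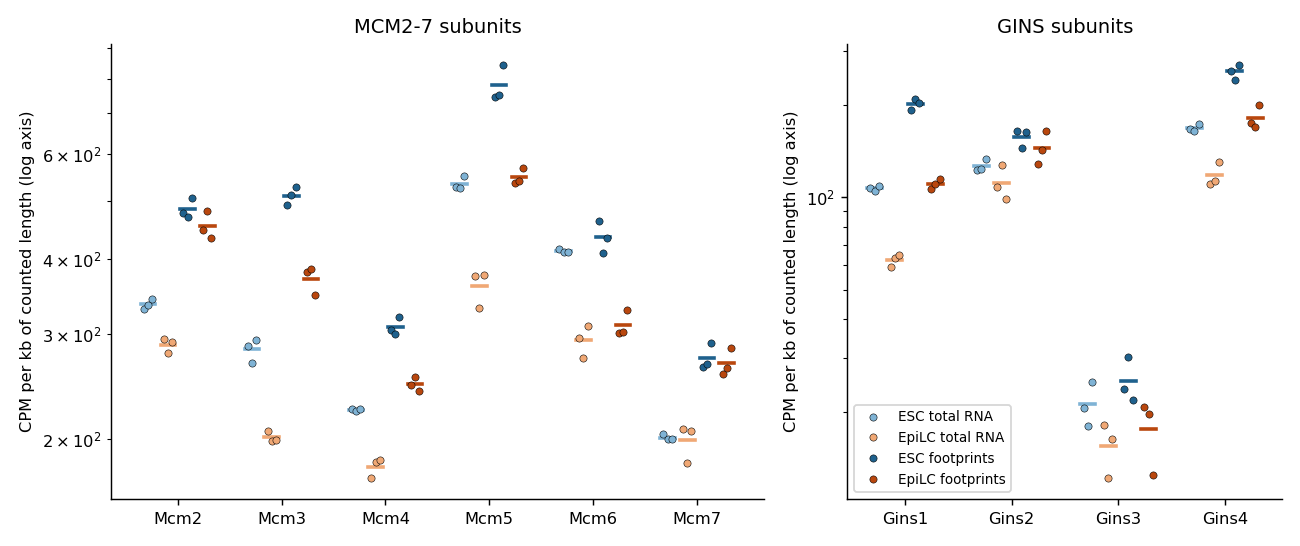
Density of reads, in TMM-scaled CPM per kb of counted coding sequence (log axis), for each subunit in the 12 libraries. Circles are libraries and short lines are group means of 3; Mcm5 leads the MCM genes in every group, and Gins3 lies between 12.1 and 30.1, below the other GINS genes in every library.

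The subunits of each complex are needed in equal numbers, so their reads per nucleotide were compared. The files give for every gene the length of coding sequence in which reads were counted, which leaves out the first 45 nucleotides. Density below is CPM divided by that length in kb. Over the 6 MCM genes the SD of log2 density within a library averaged 0.546 ± 0.010 in ESC footprints and 0.450 ± 0.007 in EpiLC footprints (SD, n = 3 libraries). In total RNA it averaged 0.534 ± 0.011 in ESCs and 0.402 ± 0.029 in EpiLCs. The ratio of the highest to the lowest subunit was 2.85 ± 0.06 in ESC footprints and 2.65 ± 0.09 in ESC total RNA. In EpiLCs the same ratio was 2.22 ± 0.13 and 2.01 ± 0.18.

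In ESC total RNA the order was Mcm5, Mcm6, Mcm2, Mcm3, Mcm4 and Mcm7, with densities of 534, 413, 336, 283, 224 and 201 CPM per kb, and no neighbours in it overlapped. In EpiLC total RNA Mcm5 (361) led, Mcm6 and Mcm2 (293 and 288) overlapped, and Mcm3, Mcm7 and Mcm4 (201, 199 and 180.0) overlapped with their neighbours. In ESC footprints the order was Mcm5 (780.3), Mcm3 (510.5), Mcm2 (484), Mcm6 (435), Mcm4 (308) and Mcm7 (274). Only Mcm3 and Mcm2 overlapped there. In EpiLC footprints it was Mcm5 (548), Mcm2 (453), Mcm3 (371), Mcm6 (310.5), Mcm7 (268) and Mcm4 (247), without overlap between neighbours. Mcm5 was above every other subunit in all 12 libraries by this measure.

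Mcm3 and Mcm6 changed places between the assays. The ratio of Mcm3 to Mcm6 per kb was 0.689, 0.654 and 0.713 in ESC total RNA and 0.698, 0.727 and 0.646 in EpiLC total RNA. In footprints it was 1.06, 1.25 and 1.22 in ESCs and 1.26, 1.27 and 1.06 in EpiLCs. Mcm6 was thus ahead in all 6 total RNA libraries and Mcm3 in all 6 footprint libraries, while the ratio overlapped between cell types within each assay.

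**Figure D3:**
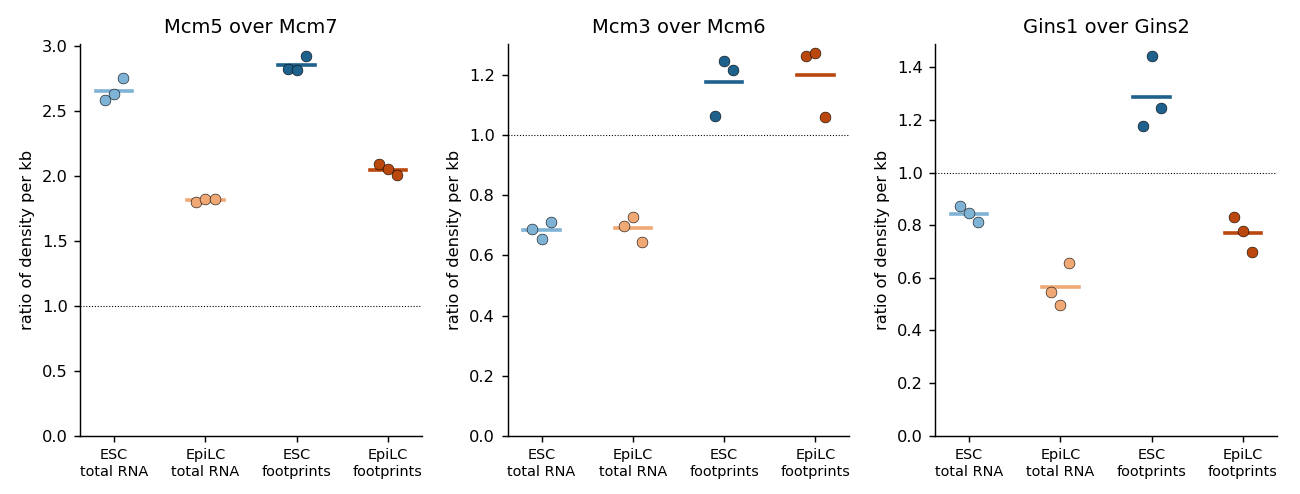
Ratios of read density per kb of counted length (vertical axis, from 0) between Mcm5 and Mcm7, Mcm3 and Mcm6, and Gins1 and Gins2, by group. Circles are libraries, short lines are means of 3 and the dotted line marks equal density; the Mcm5 to Mcm7 ratio separates the cell types, the Mcm3 to Mcm6 ratio the assays, and the Gins1 to Gins2 ratio exceeds 1 only in ESC footprints.

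The place of Mcm7 at the low end depended on how its length was counted. Per the study's methods, only reads with a single best place in the genome were kept, and a processed pseudogene of Mcm7 holds much of its coding sequence. This copy, Gm5487, lies at chr16:53983928-53986084 on the plus strand (mm10, GENCODE M21), and matches 2107 of the 2157 aligned bases (97.7%), with no gap and a longest identical run of 170 bases. For a 28-nucleotide read, a length within the 26 to 32 nucleotides kept for footprints, 1150 of the 2115 counted start positions of Mcm7 (54.4%) had an identical match in Gm5487. The share was 50.1% at 32 nucleotides and 34.9% at 50, the shortest and the longest total RNA reads. Mcm4 shared 9.47% of its 28-nucleotide positions with the pseudogene Gm9577, Mcm6 shared 2.97% with Gm15654, and the other 7 members shared none with any other transcript of the annotation. As an example, a stretch chosen to hold 1 difference is shown for both Mcm7 and Gm5487. The capital marks the base that differs, T16C, counted from 1 at the first base shown. It is coding sequence of Mcm7 at chr5:138169441-138169470 (minus strand), and the matching stretch of the pseudogene lies at chr16:53984207-53984236 (plus strand).
Mcm7: gtgaataaggatgtcTtagatgtttacatt
Gm5487: gtgaataaggatgtcCtagatgtttacatt

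With start positions that were unique at the read length in place of the full counted length, the density of Mcm7 in footprints was 599.7 ± 30.1 CPM per kb in ESCs and 588 ± 31 in EpiLCs. That put Mcm7 behind Mcm5 alone in ESC footprints, by a ratio of 1.3. In EpiLC footprints Mcm7 was ahead of Mcm5 in all 3 libraries, by a mean ratio of 1.07, with overlapping ranges. In total RNA, with positions unique at 32 nucleotides, Mcm7 came after Mcm5 and Mcm6 in ESCs (404) and ahead of Mcm5 in all 3 EpiLC libraries (399). With positions unique at 50 nucleotides it stood at 309 and 306, and Mcm5 led in every total RNA library. Under either choice Mcm4 was the lowest subunit in all 12 libraries. The SD of log2 density over the MCM genes became 0.403 ± 0.025 in ESC footprints and 0.438 ± 0.028 in EpiLC footprints, so that the order of the 2 cell types turned. In total RNA the SD was 0.422 and 0.430 at 32 nucleotides and 0.434 and 0.380 at 50, so that in ESCs the order of the assays turned as well. Whether the share of lost reads was alike in ESC and EpiLC libraries was not tested. This alternative was added after the data were seen, and it assumes that reads fall evenly along the coding sequence.

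**Figure D4:**
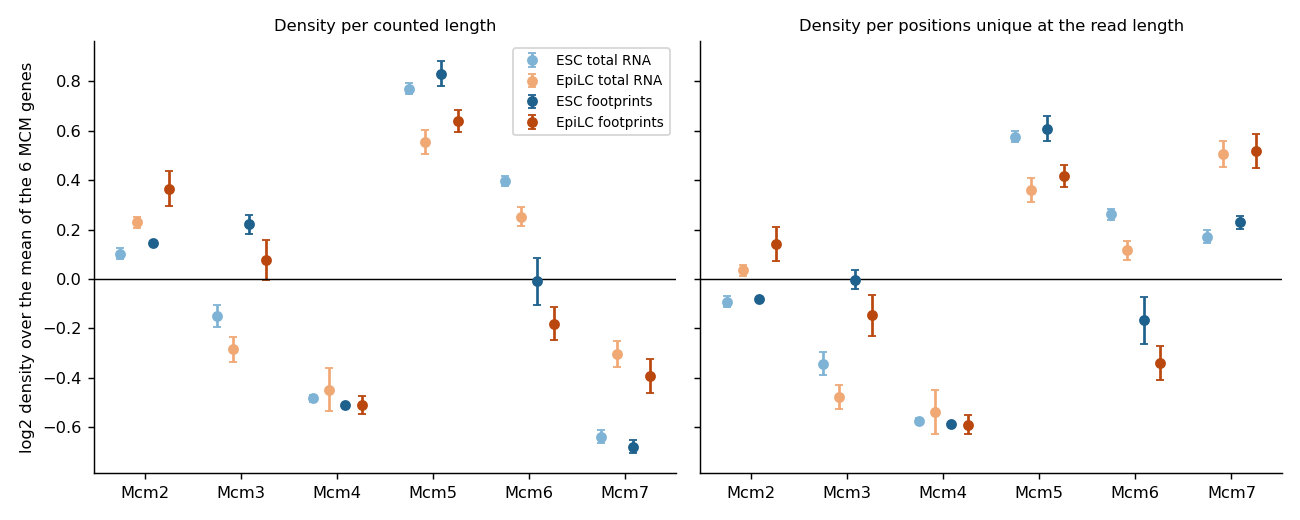
Log2 density of each MCM gene relative to the mean of the 6 in the same library (vertical axis), per counted length (left) and per start position unique at 28 nucleotides for footprints and 32 for total RNA (right). Points are means of 3 libraries and bars are SDs; Mcm7 moves from below the mean to above it, while the order of Mcm5, Mcm2 and Mcm4 among themselves is kept.

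The GINS genes were far less even. The SD of their log2 density was 1.53 ± 0.14 in ESC footprints, 1.56 ± 0.26 in EpiLC footprints, 1.35 ± 0.10 in ESC total RNA and 1.37 ± 0.17 in EpiLC total RNA. Gins3 lay far below the rest: the mean of the other 3 was above it by 8.32 ± 1.58 fold in ESC footprints, 8.9 ± 3.5 fold in EpiLC footprints, 6.44 ± 0.87 fold in ESC total RNA and 6.51 ± 1.66 fold in EpiLC total RNA. No start position of Gins3 was shared with another transcript at any read length from 26 to 50 nucleotides. Gins4 was the highest in ESC total RNA (169 CPM per kb), ESC footprints (257) and EpiLC footprints (181), and overlapped with Gins2 in EpiLC total RNA. Gins1 and Gins2 changed order in footprints, where the ratio of Gins1 to Gins2 was 1.18, 1.44 and 1.25 in ESCs and 0.83, 0.778 and 0.698 in EpiLCs. In total RNA Gins2 was ahead in both, with ratios of 0.871, 0.848 and 0.814 in ESCs and 0.546, 0.499 and 0.655 in EpiLCs. Neither assay's ratios overlapped between cell types. This pair, like that of Mcm3 and Mcm6, was not named in advance. For 3 libraries against 3 an exact permutation test cannot go below p = 0.1.

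The MCM genes were read more than the GINS genes throughout. The geometric mean density of the 6 MCM genes over that of the 4 GINS genes was 3.77 ± 0.19 in ESC total RNA, 4.13 ± 0.05 in EpiLC total RNA, 3.67 ± 0.19 in ESC footprints and 4.19 ± 0.06 in EpiLC footprints. Without Gins3 these ratios were 2.38 ± 0.04, 2.63 ± 0.19, 2.17 ± 0.03 and 2.47 ± 0.18. The ratio was higher in EpiLCs in both assays without overlap, with and without Gins3. Gins1 had the largest fall of all members in both assays, and the ratio without it was not computed. A shift between the families as a whole is therefore not shown. Even the lowest MCM gene lay above the highest GINS gene in each of the 12 libraries, by 1.02 to 1.56 fold. The 6 MCM genes took 0.643% ± 0.019 of all footprint counts in ESCs and 0.517% ± 0.004 in EpiLCs, and 0.482% ± 0.006 and 0.369% ± 0.017 of total RNA counts.

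Translational efficiency (TE), here the log2 of footprints over total RNA from the same model, showed no difference between the cell types that passed the test for any member. The interaction estimates ran from -0.15 for Gins3 to 0.11 for Mcm2, and 0 of 10 passed an adjusted p of 0.05 in limma, where 1.2% of all genes did. No member had an unadjusted p below 0.05 either, and edgeR, DESeq2 and limma-trend also gave 0. The standard errors were 0.07 to 0.08 for the MCM genes, 0.12 to 0.14 for Gins1, Gins2 and Gins4, and 0.30 for Gins3. An adjusted p below 0.05 over all genes takes an estimate of several standard errors, so differences well above these sizes could also be missed. The widest gap between the assays among the MCM genes was that of Mcm2, with an interaction of 0.11 ± 0.07 (adjusted p = 0.489).

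Within a cell type, the TE estimate of every member was above 0, the level of the average gene. In ESCs 8 of 10 were higher at an adjusted p below 0.05 (limma), against 33% of all genes, and in EpiLCs 8 of 10 against 31.3%. Gins1 and Mcm3 had the highest estimates, at 0.91 ± 0.07 and 0.86 ± 0.05 in ESCs and 0.84 ± 0.10 and 0.87 ± 0.06 in EpiLCs (adjusted p = 4.68e-11, 9.25e-14, 7.95e-08 and 1.38e-12 in limma). Mcm6 was the lowest of the MCM genes, at 0.08 ± 0.05 in ESCs and 0.09 ± 0.06 in EpiLCs, and missed the threshold in both (adjusted p = 0.158 and 0.203 in limma), as did Gins3. The other members lay between 0.33 for Gins2 in ESCs and 0.64 for Mcm2 and Gins4 in EpiLCs. No member passed the fold limit, which 7.93% of genes passed upward in ESCs and 9.39% in EpiLCs, and edgeR and DESeq2 also gave 0 members past it. With a correction for GC content, added after the data were seen, Gins1 did, at 1.12 in ESCs and 1.13 in EpiLCs. For Mcm7 the estimate of 0.45 in ESCs became 0.58 or 0.96 when the footprint and total RNA values were set to their own unique positions, with total RNA reads taken as 32 or 50 nucleotides long.

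**Figure D5:**
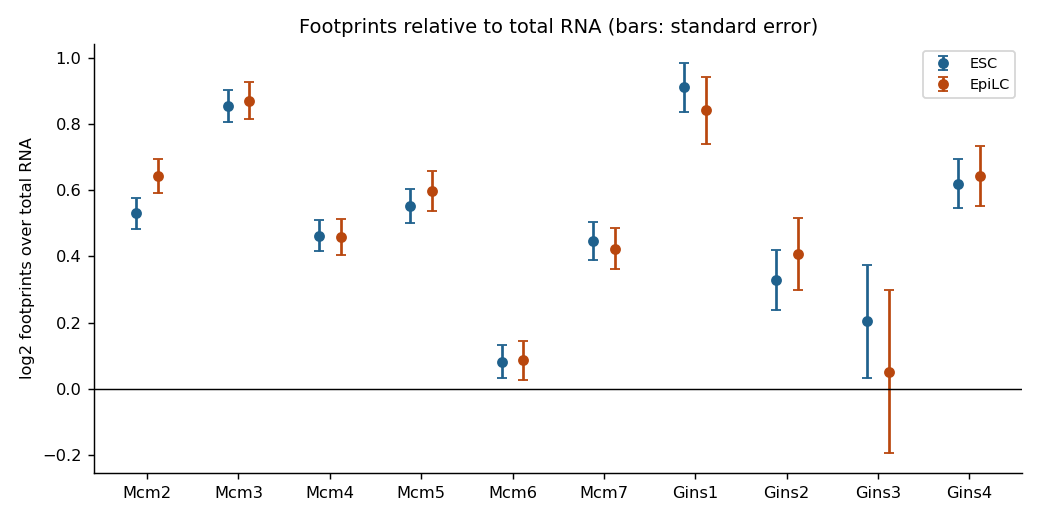
Log2 footprints over total RNA of the 10 genes in ESCs (blue) and EpiLCs (orange), relative to the average gene (0 on the vertical axis). Points are limma estimates and bars are standard errors; Mcm3 and Gins1 are highest and Mcm6 and Gins3 lowest in both cell types.

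The promoters were searched for the E2F-type motifs TTTCGCGC and TTTGGCGC on both strands, because E2F factors are known regulators of replication genes. The windows, from RefSeq (GRCm38.p6), run from 250 bases before to 50 after each start site, and 5 MCM genes and 1 GINS gene matched the table. The names without a window are Mcm4, Gins1, Gins2 and Gins4. A motif was present in 4 of the 5 MCM genes (Mcm3, Mcm5, Mcm6 and Mcm7), against 0.929% of 27025 genes, and not in the windows of Mcm2 or Gins3. In lists described below, 2 of 8 origin licensing genes and 1 of 7 helicase activation genes with a window held a motif. So did 1 of 4 relatives of the MCM genes, 5 of 23 replisome genes and 1 of 8 S phase genes. Mcm7 has 2 windows, and its other one, at chr5:138171217-138171516, held neither motif. The motifs overlap each other by 4 bases where they face each other, as in Mcm5 and in the first site of Mcm6, so those are single sites read by both searches. Mcm7, whose change did not pass the test, held the motif in 1 of its 2 windows. Mcm3, Mcm5 and Mcm6, which held it, were lower in total RNA. Mcm2, whose window held none, and Mcm4, which had no window, were lower in total RNA too. Each match is shown 5′ to 3′ on the gene's strand with the motif in capitals, at chr1:20820263-20820284 for Mcm3, chr8:75109346-75109373 for Mcm5, chr1:128359798-128359825 and chr1:128359735-128359762 for Mcm6, and chr5:138171850-138171877 for Mcm7.
Mcm3: cttgggaagtTTTGGCGCcaag
Mcm5: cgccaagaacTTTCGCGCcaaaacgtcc
Mcm6, first site: ggcgtatgctTTTGGCGCgaaaagtgcg
Mcm6, second site: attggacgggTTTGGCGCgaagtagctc
Mcm7: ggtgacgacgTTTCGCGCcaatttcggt

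Mcm7 also carries a microRNA cluster in intron 13 (chr5, minus strand), which the libraries used here do not measure. Its members miR-106b-5p (chr5:138165787-138165807) and miR-93-5p (chr5:138165574-138165596) share a seed, bases 2 to 8, shown in capitals. MicroRNAs with this seed are known to target Cdkn1a, an inhibitor of the cell cycle, so the primary transcript of Mcm7 also carries regulators of cycling.
mmu-miR-106b-5p: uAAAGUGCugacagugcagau
mmu-miR-93-5p: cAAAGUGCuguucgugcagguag

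Other replication genes were read from lists of genes that act before, with or after the helicase. Of 9 origin licensing genes, 5 were lower and 2 higher in total RNA at an adjusted p below 0.05 (limma). In footprints 6 were lower and 0 higher. Over all genes tested, 30.7% were lower and 34.6% higher in total RNA, and 28.7% lower and 31.1% higher in footprints. The licensing genes had 0 members past the fold limit in limma, edgeR or DESeq2 (7 at an unadjusted p below 0.05 in each assay). The largest total RNA change among them was that of Orc1, the ORC subunit that recruits Cdc6, at -0.91 ± 0.07 (adjusted p = 1.23e-11). Of 9 helicase activation genes, 5 were lower and 2 higher in total RNA, and 6 lower and 2 higher in footprints. Ticrr (treslin), which brings Cdc45 to the ring, fell past the fold limit, from 340.0, 315 and 362 CPM in ESC total RNA to 110.1, 112 and 106 CPM in EpiLCs. Its log2 change was -1.63 ± 0.07 in total RNA (adjusted p = 1.14e-16) and -1.74 ± 0.09 in footprints (adjusted p = 2.53e-14).

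Of 27 replisome genes, 26 were tested, and 11 were lower and 0 higher in total RNA, with 11 lower and 3 higher in footprints. For this list and the next, the shares over all genes were 30.7% lower and 34.6% higher in total RNA. In footprints they were 28.7% and 31.1%. No replisome gene passed the fold limit in limma or edgeR, while DESeq2 put 1 past it in footprints. At an unadjusted p below 0.05 limma gave 11 replisome genes in total RNA and 14 in footprints. Prim1, the catalytic subunit of primase, had the largest total RNA change, -0.72 ± 0.08 (adjusted p = 1.05e-08). Of 9 genes for nucleotide supply and chromatin assembly in S phase, 6 were lower and 1 higher in total RNA, and 5 lower and 1 higher in footprints. Uhrf1, which guides maintenance of DNA methylation behind the fork, fell from 786, 783 and 802 CPM to 353, 324 and 335 CPM (-1.22 ± 0.05, adjusted p = 3.08e-16). Tk1, the thymidine kinase of the salvage pathway, fell by 1.10 ± 0.13 on the log2 scale (adjusted p = 4.29e-08). Neither passed the fold limit in footprints, at -0.95 ± 0.05 and -0.91 ± 0.13, nor did any other gene of the list by limma, edgeR or DESeq2 (6 at an unadjusted p below 0.05).

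Of 5 relatives of the MCM genes, 3 were lower in total RNA and 3 in footprints, against 30.7% and 28.7% of all genes. Only Mcmdc2, an MCM-domain protein of meiotic recombination, fell past the fold limit. Mcmdc2 rested on few reads, with footprint counts of 36, 19 and 39 in ESCs and 0, 4 and 6 in EpiLCs. It reached the 3 CPM of the filter in ESC libraries only, with at most 1.6 CPM in EpiLCs. A fall was thus partly set by the filter. Its log2 changes were -2.18 ± 0.47 in total RNA (adjusted p = 0.000276) and -2.75 ± 0.68 in footprints (adjusted p = 0.00117), and Mcm8 and Mcm9 passed the threshold in neither assay. In TE between cell types 0 genes of these 5 lists passed an adjusted p of 0.05 in limma or edgeR, and DESeq2 passed 1 replisome gene and 1 S phase gene. At an unadjusted p below 0.05 limma gave 1 licensing gene, 5 replisome genes and 3 S phase genes.

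The genes whose levels were most like the mean of the 6 MCM genes, by Pearson's r of log2 CPM over the 12 libraries, were Ctsb (0.996), Snrnp40 (0.996), Eif3d (0.995), Cyb5r3 (0.995) and Sparc (0.994). Those most like the mean of the 4 GINS genes were Shmt2 (0.993), Emc1 (0.992), Fblim1 (0.99), Xab2 (0.989) and Capns1 (0.989). All 12 points share the contrast of assay and of cell type, so the likeness is a description of that pattern over 4 groups.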

How the data were processed

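Footprint and total RNA libraries were prepared with a ribosome profiling kit. Per the submitters' processing notes and the study's methods, reads were trimmed with cutadapt 1.14 (26 to 32 nucleotides kept for footprints, at least 32 for total RNA), mapped to mm10 with STAR 2.5.3a keeping unique places, and counted with featureCounts 1.5.3 on GENCODE M14. The deposited values are raw counts per gene, one column a library; per the file header they count the 5′ end of sense reads within coding sequence less its first 45 nucleotides, and the deposited length is that of this sequence.

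Here, genes with at least 3 CPM in at least 3 libraries were kept (11750 of 22462). Counts were scaled by TMM (edgeR 4.0.16) and fitted with voom and limma 3.58.1 (R 4.3.3) over all 12 libraries, 1 mean per group. Contrasts were EpiLC over ESC in each assay, footprints over total RNA in each cell type, and their interaction (TE). p-values were adjusted by Benjamini-Hochberg over all genes. The study's own call asks for more than a 2-fold change (a log2 limit of 1) together with an adjusted p under 0.05. edgeR's quasi-likelihood test and DESeq2 1.42.0 were alternatives, and the test was checked on simulated data. Shared positions were found by exact match of every read-length window against all GENCODE M21 transcripts; the genome outside transcripts was not searched. Annotation was matched by identifier, and 22385 of 22462 genes received a symbol. The 10 members and all gene lists were chosen with earlier results of these data known. Named genes were all members, genes called in each list or else the one with the largest total RNA change, and the 5 most alike. Depth limits Gins3 and Mcmdc2; a count of 3 equals 0.205 to 1.12 CPM.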

Additional observations from a re-analysis of the deposited data

How the results depend on the processing

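The study describes footprints with matched total RNA, but the labels do not say that a number marks a shared culture, and same-numbered libraries deviated together only weakly or not at all (correlations of -0.18 to 0.16). A replicate block within each cell type, joining same-numbered footprints and total RNA and added after the data were seen, gave 0 members in TE between cell types, 8 in ESC TE and 8 in EpiLC TE at an adjusted p below 0.05, as without it. With the replicate block over both cell types the members lower at an adjusted p below 0.05 were 7 in total RNA and 7 in footprints, against 7 and 6, with 0 past the fold limit. Over all alternatives that keep 12 libraries, 7 to 9 members were lower in total RNA and 6 to 8 in footprints, the members' median stayed negative, and no member that had passed an adjusted p of 0.05 lost it in any alternative run. Keeping every gene with a count moved the median over all genes by 0.12 in footprints and 0.11 in EpiLC TE. The median in total RNA was -0.50 with DESeq2, and within ESCs the median TE was 0.43 with total count scaling. Leaving out each library gave medians of -0.49 to -0.39 in total RNA and -0.51 to -0.39 in footprints, with -0.49 when replicate 2 of ESC total RNA was left out and -0.39 when replicate 3 of EpiLC footprints was.

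With no fold limit the calls were 7 in total RNA, 6 in footprints, 8 in ESC TE and 8 in EpiLC TE. The GC correction, alone and with the replicate block, put 1 member past the fold limit in each cell type's TE. For the 5 other lists, calls in total RNA went from 4 to 35 without the fold limit; in footprints they went from 2 to 37 without it, to 1 with at least 10 counts in every library, and to 4 with either GC correction (Ticrr, Mcmdc2, Pole4 and Uhrf1, named after their values were seen).

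The interaction estimates near 0 changed sign. That of Mcm3 (0.016) was -0.0043 with the GC correction and -0.0028 with it and the block. That of Mcm4 (-0.0043) was 0.011 with DESeq2, 0.0093 with RLE scaling, 0.024 with total counts, 0.0027 with every gene counted, 0.018 with at least 10 counts in every library, and 0.056 and 0.056 with the GC corrections. That of Mcm7 (-0.023) was 0.0044 with total counts and 0.0011 with at least 10 counts, and that of Gins1 (-0.069) was 0.0066 and 0.0020 with the GC corrections. Leaving out each library in turn, the interaction ranged from -0.018 to 0.069 for Mcm3, -0.047 to 0.034 for Mcm4, -0.011 to 0.12 for Mcm5, -0.040 to 0.043 for Mcm6, -0.081 to 0.030 for Mcm7, -0.039 to 0.18 for Gins2, -0.35 to 0.14 for Gins3 and -0.059 to 0.092 for Gins4. The total RNA change of Mcm7 ranged from -0.046 to 0.053, and the EpiLC TE of Gins3 from -0.12 to 0.37.

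As log2 of highest over lowest subunit, the MCM spread was 1.41 in ESC total RNA, 1.0 in EpiLC total RNA, 1.51 in ESC footprints and 1.15 in EpiLC footprints, and the GINS spread was 3.01, 3.0, 3.36 and 3.4. With unique positions the MCM spread (SD of log2) was 0.422 in ESC total RNA at 32 nucleotides, 0.434 at 50, 0.403 in ESC footprints and 0.438 in EpiLC footprints. The causes of these shifts were not tested. The coding length of RefSeq proteins was not run, and the principal coding length of GENCODE M21, added after seeing the data, moved no spread by more than its SD.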
